A study of Homo sapiens with 16 samples.

Results

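The 31 genes described here make and load the peptide-bearing molecules that cells show to T cells. They were taken by gene symbol from a list of members, and all 31 were found among the 61806 genes of the deposited table: 23 belong to the class I pathway and 8 to the class II pathway. Poly(A) RNA was sequenced from LX-2 cells, an immortal human line derived from hepatic stellate cells, the pericyte-like liver cells that turn into matrix-producing myofibroblasts in fibrosis. Fn14, encoded by TNFRSF12A, is the receptor of the cytokine TWEAK, and the study asked what an Fn14 isoform does without TWEAK. There were 4 groups of 4 replicates. The Fn14 KO group carried a CRISPR/Cas9 knockout of all Fn14 and received PBS. The Fn14alpha KO group carried a CRISPR/Cas9 knockout of the Fn14alpha isoform and received PBS. The TWEAK group was wild-type LX-2 given TWEAK at 100 ng/mL for 2 h, and the WT group was wild-type LX-2 given PBS. The labels do not state whether a knockout line is 1 clone or many, so genotype and line cannot be told apart. No TWEAK-treated knockout cells were among the samples, so the knockouts are described at rest.

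In the class I pathway, proteasomes cut cytosolic proteins into peptides, the TAP transporter moves the peptides into the endoplasmic reticulum, aminopeptidases trim them, and a loading complex places them on a heavy chain paired with beta-2-microglobulin. Most nucleated cells run this pathway, and interferons raise it through IRF1 and the transactivator NLRC5. In the class II pathway, alpha and beta chains travel with the invariant chain CD74 to lysosome-like compartments, where cathepsins cut CD74 and HLA-DM exchanges its last fragment for an antigen peptide. CIITA is the master transactivator of class II genes, which are mainly a property of professional antigen-presenting cells but can be switched on in other cells, stellate cells included.

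Library totals ran from 13335919 to 16888606 counts. TNFRSF12A averaged 33.6 ± 2.77 FPKM in Fn14 KO cells, 59.3 ± 6.43 in Fn14alpha KO cells, 130.4 ± 7.07 in TWEAK-treated cells and 128 ± 6.29 in WT cells (SD, n = 4 each), so its counts were lower in both knockout groups, although a gene count does not separate isoforms. The log2 fold change was -1.81 ± 0.08 (SE, adjusted p = 2.83e-15) in Fn14 KO and -1.14 ± 0.08 (SE, adjusted p = 2.16e-11) in Fn14alpha KO cells (edgeR). P-values measure the spread between these libraries, which may be technical, since the labels do not say whether replicates were separate cultures. The cells carried the markers of their label: 9 of 10 stellate and fibroblast markers had a mean of at least 1 FPKM, and their summed level was 1059 to 1127 FPKM in Fn14 KO, 598 to 605 in Fn14alpha KO, 934 to 1006 in TWEAK and 752 to 793 in WT libraries. Of 10 markers of leukocytes and professional antigen-presenting cells, 1 reached a mean of 1 FPKM and 1 had at most 3 counts in all, and their summed level was 1.65 to 2.85 FPKM in Fn14 KO, 1.24 to 1.98 in Fn14alpha KO, 1.91 to 2.93 in TWEAK and 2.18 to 2.96 in WT libraries. In bulk RNA fewer cells of a type and less RNA per cell cannot be told apart. Fn14 KO replicate 1 and WT replicate 4 lay apart from the other libraries on the third principal component, with scores of 24.5 and 37.0, and 60 of the 61 calls of the 31 genes, over the 3 comparisons with WT and the one between the knockouts, held without both. The 3 comparisons with WT share the same 4 WT libraries.

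The quasi-likelihood test of edgeR was run over 16029 genes, and “called” means an adjusted p (Benjamini-Hochberg) under 0.05. Fold changes are on the log2 scale, as the group named first minus the other, with the standard error (SE) of the fit. Levels are FPKM, that is, counts scaled to exon length and to library size, which can be compared between genes. Of the 23 class I genes, 22 passed the filter on low counts. HLA-G, a heavy chain known from the placenta, had 0 counts in all 16 libraries. Of the 8 class II genes, 6 passed, and HLA-DRA and HLA-DMB did not. Reads of the HLA genes may be split among near-identical copies, so their levels are uncertain. The strand setting of the counting was not stated in the labels, so reads of overlapping genes on opposite strands cannot be told apart.

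The promoter windows of these genes were searched for the letters of known control elements. RefSeq windows on GRCh38.p14, from 250 bases before to 50 bases after the start site, were matched for 26 of the 31 genes. The letters searched, on both strands, were GAAA, any 2 bases and GAAA again for the interferon-stimulated response element (ISRE), the NF-kB consensus, TTCNNNGAA for the STAT element GAS, TGACGTCA for the CRE element and CCAAT for the CCAAT box that NF-Y reads. The ISRE letters were in 9 of 20 class I windows (45.0%) against 3.57% of 35116 RefSeq windows, and the NF-kB consensus in 6 of 20 (30.0%) against 5.91%. None of the 6 class II windows held the ISRE letters and 1, that of CD74, held the NF-kB consensus. The CCAAT letters were in 5 of 6 class II windows (83.3%) and in 10 of 20 class I windows (50%), against 34.6% of all. GAS letters were in 1 class I window (5.0%, against 7.66%), and the CRE letters in none (against 1.85%). A match is a run of letters and not a shown binding site.

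Both the ISRE letters and the NF-kB consensus stood in 4 class I windows, those of TAP1 (chr6:32853655-32853954, minus strand), TAPBP (chr6:33314029-33314328, minus strand), ERAP1 (chr5:96807896-96808195, minus strand) and B2M (chr15:44711267-44711566, plus strand). The first 3 are the class I genes called higher after TWEAK by edgeR, and B2M is the most abundant gene of the class I complex itself. They are printed 5′ to 3′ on the strand of the gene, with the ISRE and NF-kB matches in capitals. In TAP1, 2 overlapping ISRE matches begin at positions -134 and -128 from the start site and NF-kB matches at -72 and 23.
TAP1: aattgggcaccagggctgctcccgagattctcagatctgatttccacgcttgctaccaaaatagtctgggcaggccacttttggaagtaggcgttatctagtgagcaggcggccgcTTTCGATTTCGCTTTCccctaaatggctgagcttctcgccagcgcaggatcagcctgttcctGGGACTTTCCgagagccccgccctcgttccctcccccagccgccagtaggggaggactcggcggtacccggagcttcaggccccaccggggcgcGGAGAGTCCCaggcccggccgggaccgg
TAPBP: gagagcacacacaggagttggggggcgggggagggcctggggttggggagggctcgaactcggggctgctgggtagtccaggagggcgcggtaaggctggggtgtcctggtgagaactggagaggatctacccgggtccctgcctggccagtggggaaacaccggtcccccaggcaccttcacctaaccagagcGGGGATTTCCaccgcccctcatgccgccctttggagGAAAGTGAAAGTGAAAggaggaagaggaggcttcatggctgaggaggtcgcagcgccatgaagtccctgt
ERAP1: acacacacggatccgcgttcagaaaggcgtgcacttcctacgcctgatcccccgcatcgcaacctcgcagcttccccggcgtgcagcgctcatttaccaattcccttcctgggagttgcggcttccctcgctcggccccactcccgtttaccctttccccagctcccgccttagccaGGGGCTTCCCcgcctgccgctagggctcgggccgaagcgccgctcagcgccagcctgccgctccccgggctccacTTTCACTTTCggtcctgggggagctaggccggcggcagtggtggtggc
B2M: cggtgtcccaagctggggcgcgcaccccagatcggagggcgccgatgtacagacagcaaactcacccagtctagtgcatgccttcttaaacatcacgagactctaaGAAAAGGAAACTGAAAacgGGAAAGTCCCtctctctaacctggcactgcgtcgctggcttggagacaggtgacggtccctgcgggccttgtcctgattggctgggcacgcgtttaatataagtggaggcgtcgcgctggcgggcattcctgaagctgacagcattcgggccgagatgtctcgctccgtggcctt
HLA-B (chr6:31357130-31357429, minus strand) is shown as a heavy chain whose window holds overlapping NF-kB matches in capitals and no ISRE letters. PSMB9 (chr6:32853942-32854241, plus strand) is shown because its window overlaps the upstream end of that of TAP1 on the opposite strand and held none of the ISRE, NF-kB, GAS or CRE letters.
HLA-B: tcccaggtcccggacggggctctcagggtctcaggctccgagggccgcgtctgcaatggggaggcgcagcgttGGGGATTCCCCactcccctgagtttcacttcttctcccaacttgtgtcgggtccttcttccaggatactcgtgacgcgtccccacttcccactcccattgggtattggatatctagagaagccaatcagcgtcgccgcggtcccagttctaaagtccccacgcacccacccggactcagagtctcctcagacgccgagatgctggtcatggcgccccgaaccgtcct
PSMB9: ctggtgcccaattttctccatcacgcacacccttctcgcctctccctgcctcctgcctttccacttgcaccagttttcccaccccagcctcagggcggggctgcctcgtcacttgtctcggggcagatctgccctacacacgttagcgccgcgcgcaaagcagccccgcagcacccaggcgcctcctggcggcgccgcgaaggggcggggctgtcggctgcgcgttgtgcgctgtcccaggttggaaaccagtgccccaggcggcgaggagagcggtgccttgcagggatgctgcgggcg
The 10 letters GAAAGCGAAA or their reverse complement TTTCGCTTTC stood in the windows of TAP1, TAP2, PSMB10, PSME1 and PSME2, and GAAAGTGAAA or its reverse complement TTTCACTTTC stood in those of TAPBP, where 2 copies overlap, and ERAP1.

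Class I genes were mostly lower in Fn14 KO cells. Of the 22 tested, 13 fell and 4 rose against WT (adjusted p under 0.05, edgeR), and the median of the 22 log2 fold changes was -0.53, where the median of all genes was -0.01. In that comparison 52.9% of all genes were called, 26.6% higher and 26.3% lower. In Fn14alpha KO cells 11 class I genes fell and 4 rose, with a median of -0.21 against 0.01 for all genes. With the median of the 100 nearest tested genes removed from each, 12 fell and 1 rose there: TAP1, TAP2, CALR and PSME3, the 4 that rose, were then not called, LNPEP was called higher and HLA-C lower. In Fn14 KO cells 15 fell and 2 rose with it removed. The shares of all genes called with the neighbours' median removed are not reported here, so these counts have no like share beside them. Without that removal, 42.2% of all genes were called in Fn14alpha KO cells against WT, 20% higher and 22.2% lower. After TWEAK 3 class I genes rose and 0 fell, with a median of 0.08 against -0.01, and 6.88% of all genes were called, 4.82% higher and 2.05% lower. Between the knockouts, 11 class I genes were lower and 6 higher in Fn14 KO than in Fn14alpha KO cells, where 59.2% of all genes were called, 30.7% higher and 28.5% lower. By library, 3 class I genes had all 4 Fn14 KO libraries above all 4 WT libraries and 13 had them all below, as 15.9% and 28.1% of all genes did. For Fn14alpha KO these were 5 above and 11 below WT, against 20.9% and 18.7%. For TWEAK they were 4 above and 0 below, against 5.74% and 11.6%. Between Fn14 KO and Fn14alpha KO they were 3 above and 11 below, against 19.2% and 32.3%.

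**Figure D1:**
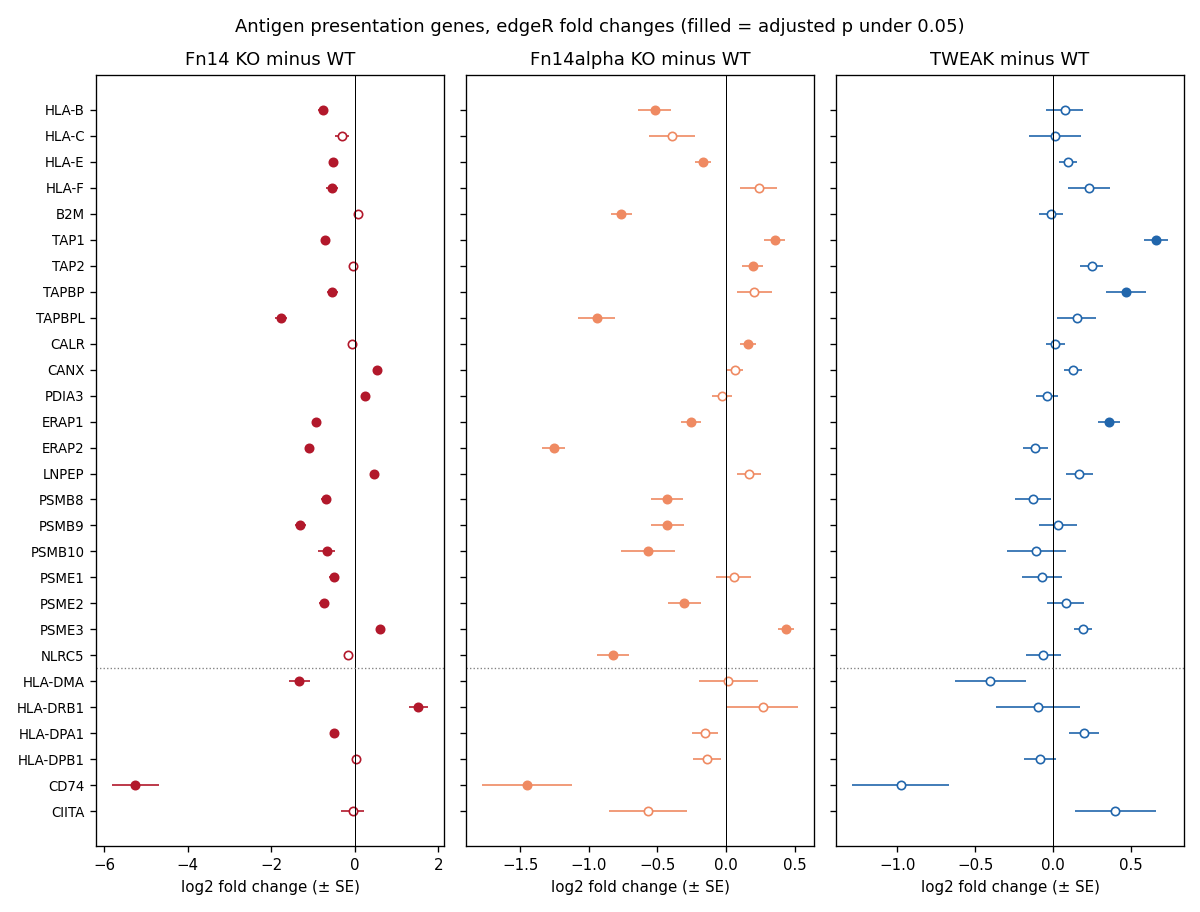
Log2 fold change ± SE of the 28 tested genes (class I above the dotted line, class II below) in Fn14 KO, Fn14alpha KO and TWEAK-treated cells, each minus WT, with filled points for an adjusted p under 0.05 in edgeR and a different horizontal scale in each panel. In the class I part 13 filled points lie left of 0 for Fn14 KO and 11 for Fn14alpha KO, and 3 lie right of 0 for TWEAK.

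The chains of the class I complex did not move together in the knockouts. B2M, the light chain that every class I heavy chain needs, had 514, 433, 421 and 415 FPKM in the Fn14 KO libraries and 272, 280.0, 282 and 280.0 FPKM in the Fn14alpha KO libraries. It had 432, 452, 411 and 467 FPKM in the TWEAK libraries and 443, 437, 433 and 537 FPKM in the WT libraries. The Fn14alpha KO libraries were the lowest 4 of the 16 and overlapped with no other group, and the Fn14 KO and WT libraries overlapped. B2M fell in Fn14alpha KO cells, with a log2 fold change of -0.76 ± 0.08 (SE, adjusted p = 3.02e-08) in edgeR, or 58.9% of the WT level. In Fn14 KO cells it was not called against WT (adjusted p = 0.519, edgeR) and was higher than in Fn14alpha KO cells by 0.83 ± 0.08 (SE, adjusted p = 3.08e-09) in edgeR. NLRC5, the transactivator that raises class I genes, was likewise lowest in Fn14alpha KO cells. It averaged 1.498 ± 0.0918 FPKM in Fn14 KO cells, 1.05 ± 0.0883 in Fn14alpha KO cells, 1.67 ± 0.224 in TWEAK-treated cells and 1.81 ± 0.328 in WT cells (SD, n = 4 each). Its 4 Fn14alpha KO libraries, at 1.05, 1.08, 1.14 and 0.93 FPKM, lay below every library of the other groups. NLRC5 fell in Fn14alpha KO cells with a log2 fold change of -0.82 ± 0.12 (SE, adjusted p = 4.32e-06) in edgeR. The Fn14 KO value did not pass against WT (adjusted p = 0.254, edgeR) but passed without the 2 libraries that lay apart, at -0.26 ± 0.10 (SE, adjusted p = 0.0282), and it was higher than in Fn14alpha KO cells by 0.67 ± 0.12 (SE, adjusted p = 4.01e-05).

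HLA-B, a classical heavy chain that presents peptides to CD8 T cells, had 32.95, 22.1, 22.2 and 21.6 FPKM in the Fn14 KO libraries and 28.7, 35.8, 34.03 and 30.7 FPKM in the Fn14alpha KO libraries. It had 41.6, 44.5, 45.99 and 51.4 FPKM in the TWEAK libraries and 42.8, 42.8, 43.05 and 52.6 FPKM in the WT libraries. All knockout libraries lay below all WT and TWEAK libraries, and Fn14 KO replicate 1 lay within the Fn14alpha KO range, above its own 3 replicates. The log2 fold change against WT was -0.76 ± 0.12 (SE, adjusted p = 2.13e-05) in Fn14 KO and -0.52 ± 0.12 (SE, adjusted p = 0.00149) in Fn14alpha KO cells (edgeR). Without the 2 libraries that lay apart these were -0.85 ± 0.07 (SE, adjusted p = 2.04e-12) and -0.44 ± 0.07 (SE, adjusted p = 1e-06), and HLA-B was then also called lower in Fn14 KO than in Fn14alpha KO cells, with -0.41 ± 0.07 (SE, adjusted p = 2.65e-06). HLA-E, which shows leader peptides of other class I chains to NK cells, averaged 40.6 ± 1.86 FPKM in Fn14 KO cells, 57.4 ± 2.399 in Fn14alpha KO cells, 64.7 ± 4.14 in TWEAK-treated cells and 63.1 ± 1.54 in WT cells (SD, n = 4 each). The Fn14 KO libraries were below every other library, and the fold change was -0.52 ± 0.06 (SE, adjusted p = 1.04e-07), against -0.17 ± 0.06 (SE, adjusted p = 0.0255) in Fn14alpha KO cells (edgeR). The Fn14alpha KO call of HLA-E was lost when single libraries were left out (adjusted p = 0.0892 without Fn14alpha KO replicate 4, 0.0597 without WT replicate 1 and 0.0575 without WT replicate 3), and with total counts, no filter and both limma settings. With the neighbours removed it was -0.59 ± 0.06 (SE, adjusted p = 4.06e-08). HLA-F, a less common nonclassical chain, fell in Fn14 KO cells alone among the 3 comparisons with WT, with a log2 fold change of -0.54 ± 0.14 (SE, adjusted p = 0.00262) in edgeR. Its levels were 1.39 ± 0.234 FPKM in Fn14 KO and 2.65 ± 0.278 in Fn14alpha KO cells, a difference of -0.78 ± 0.14 (SE, adjusted p = 4.73e-05) between the knockouts. HLA-C, a classical chain that also engages killer-cell receptors, passed in none of the 4 comparisons (adjusted p from 0.0671 to 0.986, edgeR), and its WT libraries spread from 20.3 to 39.1 FPKM. With the neighbours removed it was called lower in both knockouts, with -0.51 ± 0.17 (SE, adjusted p = 0.0199) in Fn14 KO and -0.80 ± 0.17 (SE, adjusted p = 0.00135) in Fn14alpha KO cells. It was also called lower in both without WT replicate 1, in Fn14 KO cells with total counts, and in Fn14alpha KO cells without Fn14alpha KO replicate 2. No chain of the complex was called after TWEAK by edgeR, also at an unadjusted p under 0.05, and 0 by DESeq2 and limma. Of all genes 6.88% were called after TWEAK by edgeR.

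**Figure D2:**
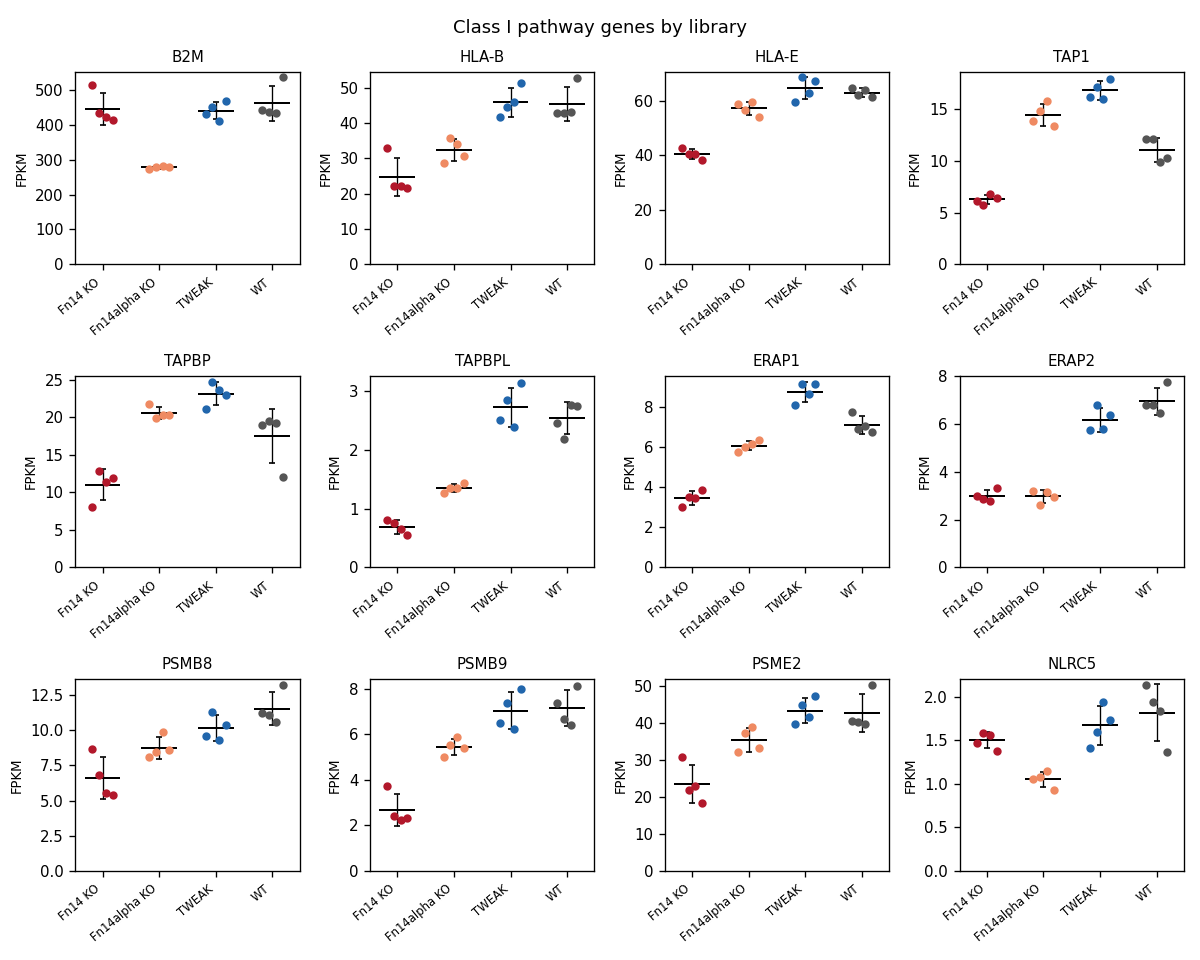
FPKM per library for 12 class I pathway genes in Fn14 KO, Fn14alpha KO, TWEAK-treated and WT cells, with points for the 4 libraries of a group and bars for the mean ± SD. B2M and NLRC5 are lowest in the Fn14alpha KO libraries, whereas TAP1, TAPBP, ERAP1 and PSMB9 are lowest in the Fn14 KO libraries.

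After TWEAK 3 class I genes were called, TAP1, TAPBP and ERAP1, which carry, load and trim peptides, and none of the heavy chains, B2M or the proteasome genes was. At an unadjusted p under 0.05 edgeR gave 6 class I genes higher and 0 lower, DESeq2 called 5 higher and 0 lower, and limma on log2(FPKM + 1) 2 higher and 0 lower. TAP2 and PSME3 are the 2 that DESeq2 added. The shares of all genes under these other settings are not reported here, so these counts have no like share beside them. Of the 4 class I genes with both the ISRE letters and the NF-kB consensus 3 were called higher by edgeR, against 0 of 2 with the NF-kB consensus alone (HLA-B and HLA-C), 0 of 5 with the ISRE letters alone and 0 of the 8 tested with neither. This split rests in part on adjusted p-values near the threshold: TAPBP 0.0325, TAP2 (ISRE letters alone) 0.0511 and PSME3 (neither) 0.0505 in edgeR. DESeq2 and the fit with the neighbours' median removed called TAP2 and PSME3 too. The TAPBP call was lost with total counts and both limma settings (adjusted p = 0.0619 to 0.083). Among all other tested genes with a promoter window, 31.2% of 16 with both were called higher after TWEAK, 9.91% of 747 with the NF-kB consensus alone, 5.96% of 302 with the ISRE letters alone and 4.73% of 10266 with neither. These shares are a description.

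TAP1, the first subunit of the peptide transporter (GRCh38, chromosome 6, 32845209 to 32853816, minus strand), had 6.13, 5.77, 6.8 and 6.42 FPKM in the Fn14 KO libraries and 13.9, 14.8, 15.9 and 13.4 FPKM in the Fn14alpha KO libraries. It had 16.2, 17.2, 15.98 and 17.98 FPKM in the TWEAK libraries and 12.1, 12.1, 9.93 and 10.3 FPKM in the WT libraries. All 4 TWEAK libraries lay above all 4 WT libraries and all 4 Fn14 KO libraries below them, with no overlap. TAP1 rose after TWEAK by 0.66 ± 0.08 (SE, adjusted p = 1.51e-06), rose in Fn14alpha KO cells by 0.35 ± 0.08 (SE, adjusted p = 0.000729) and fell in Fn14 KO cells, with -0.71 ± 0.08 (SE, adjusted p = 8.65e-08), all on the log2 scale in edgeR. The knockouts differed by -1.06 ± 0.08 (SE, adjusted p = 6.38e-11), so the 2 lines lay on opposite sides of WT. The genes around TAP1 were themselves higher in Fn14alpha KO cells, with a median of 0.38 over 100 tested neighbours, and with that median removed the Fn14alpha KO value became -0.03 ± 0.08 (SE, adjusted p = 0.799). TAP2, the second transporter subunit, had 3.93 ± 0.274 FPKM in Fn14 KO, 5.1 ± 0.292 in Fn14alpha KO, 4.96 ± 0.0888 in TWEAK-treated and 4.36 ± 0.479 in WT cells (SD, n = 4 each). It was called higher in Fn14alpha KO cells, with 0.19 ± 0.08 (SE, adjusted p = 0.0421) in edgeR. That value was -0.19 ± 0.08 (SE, adjusted p = 0.0563) with the neighbours removed. The call was also lost when single libraries were left out (adjusted p = 0.104 without Fn14alpha KO replicate 1, 0.114 without Fn14alpha KO replicate 4, 0.0504 without TWEAK replicate 3, 0.065 without WT replicate 3 and 0.167 without WT replicate 4). Its TWEAK value did not pass (adjusted p = 0.0511).

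TAPBP, tapasin, tethers the empty heavy chain to the transporter. It had 8.06, 12.8, 11.4 and 11.9 FPKM in the Fn14 KO libraries and 21.7, 19.9, 20.3 and 20.4 FPKM in the Fn14alpha KO libraries. It had 21.1, 24.7, 23.7 and 23.01 FPKM in the TWEAK libraries and 18.97, 19.5, 19.2 and 12.1 FPKM in the WT libraries. WT replicate 4, the library that lay apart, was the lowest of its group, within the Fn14 KO range. With all libraries TAPBP rose after TWEAK by 0.46 ± 0.13 (SE, adjusted p = 0.0325) and fell in Fn14 KO cells, with -0.54 ± 0.13 (SE, adjusted p = 0.00162) (edgeR). Without WT replicate 4 and Fn14 KO replicate 1 these values were 0.33 ± 0.06 (SE, adjusted p = 9.05e-05) and -0.56 ± 0.06 (SE, adjusted p = 1.71e-09). The TWEAK call was lost when TWEAK replicate 2, 3 or 4 alone was left out, with adjusted p-values of 0.0783, 0.0799 and 0.0632. TAPBPL, a tapasin relative that edits the peptides of chains outside the main complex, had 0.8, 0.76, 0.65 and 0.55 FPKM in the Fn14 KO libraries and 1.27, 1.35, 1.35 and 1.43 FPKM in the Fn14alpha KO libraries. It had 2.51, 2.85, 2.38 and 3.13 FPKM in the TWEAK libraries and 2.46, 2.19, 2.76 and 2.75 FPKM in the WT libraries. Its 4 Fn14 KO libraries were the lowest, the 4 Fn14alpha KO libraries came next, and neither overlapped with WT. The log2 fold change was -1.76 ± 0.15 (SE, adjusted p = 4.59e-10) in Fn14 KO and -0.94 ± 0.13 (SE, adjusted p = 3.84e-06) in Fn14alpha KO cells (edgeR). Its 100 neighbours on chromosome 12 were also lower, with medians of -0.65 and -0.44, and with these removed the values were -1.12 ± 0.15 (SE, adjusted p = 1.31e-06) and -0.51 ± 0.13 (SE, adjusted p = 0.00519). TAPBPL shares 10.6% of its exon bases with VAMP1 on the opposite strand, which had 2720 counts against its 1407. VAMP1 was called lower in Fn14 KO cells (-0.36, adjusted p = 0.0257) and not in Fn14alpha KO cells (adjusted p = 0.485) in edgeR. The part of VAMP1 reads in the TAPBPL values was not tested.

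Of the 3 general chaperones of the endoplasmic reticulum, 2 rose in Fn14 KO cells and 1 in Fn14alpha KO cells. Among all genes, 26.6% were called higher in Fn14 KO and 20% in Fn14alpha KO cells, and 1 of 3 stands near the latter share. CALR, calreticulin, holds newly made chains in the loading complex and averaged 534 ± 26.6 FPKM in Fn14 KO cells, 692 ± 30.7 in Fn14alpha KO cells, 587 ± 17.04 in TWEAK-treated cells and 606 ± 24.5 in WT cells (SD, n = 4 each), the highest level of the 31 genes. It was called higher in Fn14alpha KO cells, by 0.16 ± 0.06 (SE, adjusted p = 0.0354) in edgeR, a call lost with the neighbours removed and when single libraries were left out (adjusted p = 0.0602 without Fn14alpha KO replicate 1, 0.0692 without Fn14alpha KO replicate 2, 0.113 without Fn14alpha KO replicate 3, 0.0684 without WT replicate 1 and 0.107 without WT replicate 2). CANX, calnexin, folds free heavy chains and rose in Fn14 KO cells by 0.52 ± 0.06 (SE, adjusted p = 6.11e-08), and PDIA3, the ERp57 disulfide isomerase of the loading complex, rose there by 0.24 ± 0.07 (SE, adjusted p = 0.0064) (edgeR). The neighbours of CANX on chromosome 5 and of PDIA3 on chromosome 15 were higher by medians of 0.50 and 0.21 in Fn14 KO cells, and with these removed neither gene was called. The PDIA3 call was also lost under scaling by total counts (0.12, adjusted p = 0.139). None of the 3 was called after TWEAK, where 6.88% of all genes were.

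Of the 3 peptide trimming enzymes 2 fell and 1 rose in Fn14 KO cells, where 26.3% of all genes were called lower and 26.6% higher. ERAP1, which shortens peptides to the length class I grooves take, had 3.01, 3.49, 3.48 and 3.84 FPKM in the Fn14 KO libraries and 5.77, 6.02, 6.14 and 6.33 FPKM in the Fn14alpha KO libraries. It had 8.1, 9.15, 8.63 and 9.11 FPKM in the TWEAK libraries and 7.75, 6.89, 7.02 and 6.73 FPKM in the WT libraries. The 4 groups did not overlap: every Fn14 KO library was below every Fn14alpha KO library, every Fn14alpha KO library below every WT library, and every TWEAK library above WT. The log2 fold changes against WT were -0.92 ± 0.07 (SE, adjusted p = 2.54e-10), -0.26 ± 0.07 (SE, adjusted p = 0.0058) and, after TWEAK, 0.36 ± 0.07 (SE, adjusted p = 0.00149) in edgeR. ERAP2, a related aminopeptidase with other sequence preferences, had 3.01, 2.87, 2.79 and 3.33 FPKM in the Fn14 KO libraries and 3.21, 2.62, 3.15 and 2.94 FPKM in the Fn14alpha KO libraries. It had 5.74, 6.81, 5.8 and 6.36 FPKM in the TWEAK libraries and 6.79, 6.8, 6.47 and 7.77 FPKM in the WT libraries. Both knockouts lay below WT and TWEAK with no overlap and overlapped with each other, and the fold changes were -1.10 ± 0.09 (SE, adjusted p = 1.26e-10) in Fn14 KO and -1.26 ± 0.09 (SE, adjusted p = 3.02e-11) in Fn14alpha KO cells (edgeR). LNPEP, an endosomal aminopeptidase used in cross-presentation, stands next to ERAP2 on chromosome 5 and rose in Fn14 KO cells by 0.46 ± 0.08 (SE, adjusted p = 5.96e-05) (edgeR). It averaged 3.56 ± 0.481 FPKM in Fn14 KO cells, 3.21 ± 0.292 in Fn14alpha KO cells, 3.02 ± 0.155 in TWEAK-treated cells and 2.8 ± 0.131 in WT cells (SD, n = 4 each). The medians of their 100 neighbours were near 0 in both knockouts, from -0.13 to -0.06. ERAP1 shares exon bases on opposite strands with CAST, which had 66298 counts against its 12162. CAST was not called after TWEAK (0.09 on the log2 scale, adjusted p = 0.409, edgeR). It was called lower in Fn14alpha KO cells (-0.31, adjusted p = 0.000157) and in Fn14 KO cells (-0.14, adjusted p = 0.0482) in edgeR. The part of CAST reads in the ERAP1 values was not tested.

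Immunoproteasome genes fell in Fn14 KO cells, and 4 of the 5 fell in Fn14alpha KO cells too, while 0 were called after TWEAK by edgeR. Among all genes, 26.3% were called lower in Fn14 KO cells, 22.2% were called lower in Fn14alpha KO cells and 6.88% were called after TWEAK. The 0 of 5 after TWEAK stands near the share of all genes. With PSME3 added, an unadjusted p under 0.05 gave 1 of 6 higher and 0 lower after TWEAK, DESeq2 called 1 higher, PSME3, and limma on log2(FPKM + 1) 0. The shares of all genes under these other settings are not reported here. The 5 are the catalytic subunits that replace the constitutive ones under interferon, PSMB8, PSMB9 and PSMB10, and the PA28 cap subunits PSME1 and PSME2, which open the proteasome. PSMB9, read divergently from TAP1, had 3.71, 2.41, 2.23 and 2.33 FPKM in the Fn14 KO libraries and 4.99, 5.52, 5.86 and 5.38 FPKM in the Fn14alpha KO libraries. It had 6.48, 7.39, 6.24 and 8.0 FPKM in the TWEAK libraries and 7.39, 6.69, 6.39 and 8.13 FPKM in the WT libraries. All Fn14 KO libraries were below all Fn14alpha KO libraries, and those below all WT libraries, while TWEAK and WT overlapped. Its log2 fold change was -1.30 ± 0.13 (SE, adjusted p = 9.99e-09) in Fn14 KO and -0.43 ± 0.12 (SE, adjusted p = 0.00667) in Fn14alpha KO cells, and -0.88 ± 0.13 (SE, adjusted p = 4.81e-06) between the knockouts (edgeR). After TWEAK it was not called (adjusted p = 0.912, edgeR). Its neighbour TAP1 was called higher both in Fn14alpha KO cells, where PSMB9 was called lower, and after TWEAK, and the difference between the genes was not tested. PSMB8 averaged 6.61 ± 1.52 FPKM in Fn14 KO cells, 8.76 ± 0.783 in Fn14alpha KO cells, 10.2 ± 0.906 in TWEAK-treated cells and 11.6 ± 1.17 in WT cells (SD, n = 4 each) and fell in both knockouts, with -0.69 ± 0.12 (SE, adjusted p = 3.31e-05) in Fn14 KO and -0.43 ± 0.12 (SE, adjusted p = 0.00449) in Fn14alpha KO cells (edgeR). PSMB8 shares 20.6% of its exon bases with PSMB8-AS1 on the opposite strand, which had 515 counts against its 7821. PSMB8-AS1 was called lower in Fn14 KO (-1.32, adjusted p = 1.88e-05) and Fn14alpha KO cells (-0.56, adjusted p = 0.0272) in edgeR, and its part in the PSMB8 values was not tested. PSMB10 averaged 3.29 ± 1.26 FPKM in Fn14 KO cells, 3.93 ± 0.888 in Fn14alpha KO cells, 5.103 ± 1.003 in TWEAK-treated cells and 5.7 ± 0.459 in WT cells (SD, n = 4 each). It fell as well, with -0.68 ± 0.20 (SE, adjusted p = 0.00689) in Fn14 KO and -0.57 ± 0.20 (SE, adjusted p = 0.0238) in Fn14alpha KO cells (edgeR), though it shares 34.8% of its exon bases with another gene on its strand, so its counts are uncertain. Its Fn14alpha KO call was lost when single libraries were left out (adjusted p = 0.0638 without Fn14alpha KO replicate 1, 0.089 without Fn14alpha KO replicate 4 and 0.0638 without WT replicate 3).

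PSME1 had 36.5, 22.6, 24.3 and 22.5 FPKM in the Fn14 KO libraries and 40.3, 46.1, 45.1 and 41.2 FPKM in the Fn14alpha KO libraries. It had 34.5, 40.05, 32.97 and 41.2 FPKM in the TWEAK libraries and 38.8, 39.01, 36.8 and 47.7 FPKM in the WT libraries. It fell in Fn14 KO cells, with -0.50 ± 0.13 (SE, adjusted p = 0.00285) in edgeR, where replicate 1 stood near the WT range and the other 3 well below it. Without both libraries that lay apart the value was -0.61 ± 0.08 (SE, adjusted p = 3.8e-08). The Fn14alpha KO libraries of PSME1 overlapped with WT, and it was not called there (adjusted p = 0.754, edgeR). PSME2, its partner, averaged 23.4 ± 5.21 FPKM in Fn14 KO cells, 35.4 ± 3.24 in Fn14alpha KO cells, 43.3 ± 3.36 in TWEAK-treated cells and 42.7 ± 5.13 in WT cells (SD, n = 4 each), with -0.75 ± 0.12 (SE, adjusted p = 2.82e-05) in Fn14 KO and -0.30 ± 0.12 (SE, adjusted p = 0.0478) in Fn14alpha KO cells (edgeR). The Fn14alpha KO call of PSME2 stood close to the threshold and was lost on leaving out any 1 of 11 of the 16 libraries, with adjusted p-values of 0.0504 to 0.17. It held without Fn14 KO replicate 1 or 4, without Fn14alpha KO replicate 3 and without WT replicate 2 or 3. Without both libraries that lay apart it was -0.21 ± 0.07 (SE, adjusted p = 0.014). PSME3 forms another cap, found in the nucleus and not raised by interferon, and it went the other way. It averaged 49.6 ± 1.63 FPKM in Fn14 KO cells, 48.6 ± 2.05 in Fn14alpha KO cells, 38.5 ± 1.42 in TWEAK-treated cells and 35.2 ± 1.96 in WT cells (SD, n = 4 each), with 0.61 ± 0.06 (SE, adjusted p = 4.26e-09) in Fn14 KO and 0.44 ± 0.06 (SE, adjusted p = 1.78e-06) in Fn14alpha KO cells (edgeR). The 100 neighbours of PSME3 on chromosome 17 had medians of 0.39 and 0.36, and the Fn14alpha KO call was lost with them removed.

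The balance of immune to constitutive subunits was compared on the FPKM scale. PSMB9 stood at 2.30% ± 0.267 of its counterpart PSMB6 in Fn14 KO cells, 5.98% ± 0.254 in Fn14alpha KO, 7.26% ± 0.655 in TWEAK-treated and 6.37% ± 0.334 in WT cells (SD, n = 4 each). The Fn14 KO libraries, at 1.93% to 2.54%, did not overlap with WT, at 5.98% to 6.77%, while the Fn14alpha KO libraries, at 5.64% to 6.22%, did. PSMB8 stood at 8.33% ± 0.749 of PSMB5 in Fn14 KO, 9.72% ± 0.603 in Fn14alpha KO, 12.9% ± 1.09 in TWEAK-treated and 12.8% ± 0.482 in WT cells, and neither knockout overlapped with WT. PSMB10 stood at 3.21% ± 0.925 of PSMB7 in Fn14 KO, 4.79% ± 0.724 in Fn14alpha KO, 4.72% ± 0.748 in TWEAK-treated and 5.06% ± 0.716 in WT cells, and the Fn14 KO and WT ranges overlapped. Both PSMB6 and PSMB7 were themselves called lower in Fn14alpha KO than in WT cells, with -0.33 ± 0.10 (SE, adjusted p = 0.0122) and -0.51 ± 0.08 (SE, adjusted p = 1.52e-05) in edgeR, and PSMB5 was not called. With the neighbours removed neither was called (PSMB6 at -0.27, adjusted p = 0.0514, and PSMB7 at -0.17, adjusted p = 0.118). Of the 14 genes of the constitutive core that were tested, 2 were higher and 4 lower in Fn14 KO, 0 higher and 3 lower in Fn14alpha KO and 0 called in TWEAK-treated cells by edgeR, also at an unadjusted p under 0.05, and 0 by DESeq2 and limma. The shares called lower, 4 and 3 of 14, stand near the 26.3% and 22.2% of all genes called lower in Fn14 KO and Fn14alpha KO cells. The 0 of 14 after TWEAK stands near the 6.88% of all genes called there by edgeR.

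**Figure D3:**
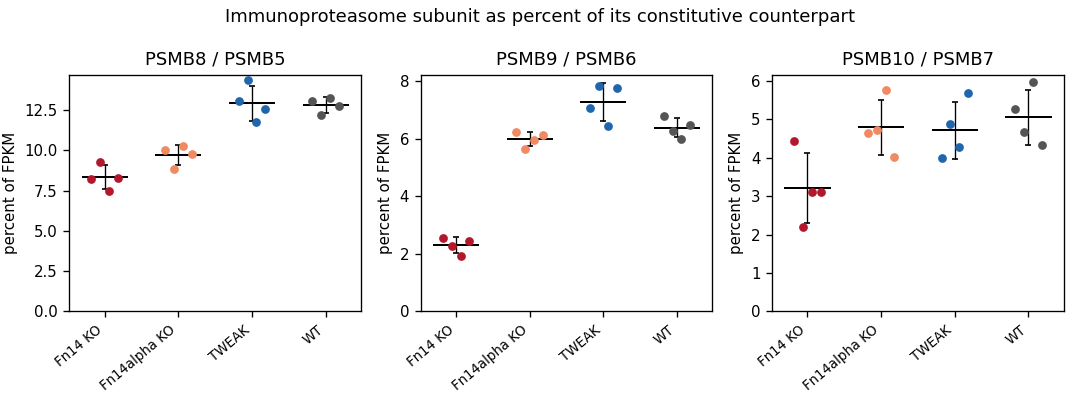
FPKM of each immunoproteasome subunit as percent of the constitutive subunit it replaces, per library, in Fn14 KO, Fn14alpha KO, TWEAK-treated and WT cells, with bars for the mean ± SD of 4 libraries. PSMB9 as percent of PSMB6 averages 2.30 in Fn14 KO cells, against 6.37 in WT cells, and 5.98 in Fn14alpha KO cells.

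The members on chromosome 6 were set beside their neighbours on the chromosome. Of the 31 genes 16 lie on chromosome 6, and 13 of these were tested. In Fn14alpha KO cells the 100 tested genes nearest to each had medians of 0.38 to 0.48 on the log2 scale, so genes of this region were mostly higher there, yet all 13 lay below the median of their neighbours. With that median removed 7 of the 13 were called lower and 0 higher in Fn14alpha KO cells. In Fn14 KO cells the neighbours' medians were 0.17 to 0.29, 12 of the 13 lay below them and 1, HLA-DRB1, above, and 11 were called lower and 1 higher with the medians removed. Without the medians removed, 22.2% of all genes were called lower and 20% higher in Fn14alpha KO cells, and 26.3% and 26.6% in Fn14 KO cells. The shares of all genes called with the medians removed are not reported here. After TWEAK the neighbours' medians lay between -0.03 and 0.06. Copy number was not measured, and the part of such regional differences in the values of single genes was not tested.

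**Figure D4:**
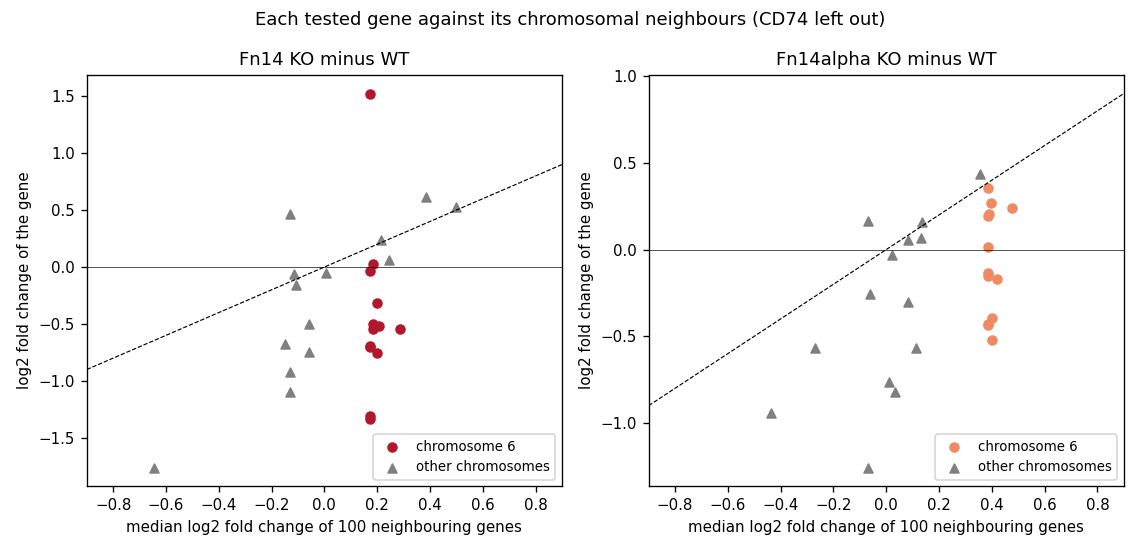
Log2 fold change of each tested gene (vertical) against the median log2 fold change of its 100 nearest tested genes (horizontal) in Fn14 KO and Fn14alpha KO cells, each minus WT, with genes of chromosome 6 coloured, CD74 left out and a dashed line where both are equal. All 13 chromosome 6 genes lie under the line for Fn14alpha KO, and 12 of 13 for Fn14 KO.

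Class II genes were low in every group, with group means of at most 4.85 FPKM, and the invariant chain had 2 counts in all in Fn14 KO cells. Of the 6 tested, 1 rose and 3 fell in Fn14 KO cells, 0 rose and 1 fell in Fn14alpha KO cells, and 0 were called after TWEAK by edgeR. Of all genes 26.6% were called higher and 26.3% lower in Fn14 KO cells, and 20% and 22.2% in Fn14alpha KO cells, so 1 of 6 lower in Fn14alpha KO cells stands near the share of all genes. After TWEAK 6.88% of all genes were called by edgeR, and 0 of 6 stands near that share. An unadjusted p under 0.05 gave 1 higher and 1 lower after TWEAK, DESeq2 called 0 and limma on log2(FPKM + 1) 1, CD74. The shares of all genes under these other settings are not reported here. CD74, the invariant chain that guides class II molecules to the endosome, had 1, 0, 1 and 0 counts in the Fn14 KO libraries and 7, 8, 10 and 11 counts in the Fn14alpha KO libraries. It had 18, 11, 10 and 9 counts in the TWEAK libraries and 20, 26, 40 and 19 counts in the WT libraries. No Fn14 KO library had more than 1 count, every Fn14alpha KO library lay below every WT library, while TWEAK and WT met, at 18 counts in the highest TWEAK library and 19 in the lowest WT library, both 0.26 FPKM. Summed over the group, the Fn14 KO to WT ratio was 0.0196 (95% exact counting interval 0.00234 to 0.0724) and the Fn14 KO to Fn14alpha KO ratio 0.0528 (0.00616 to 0.205), intervals that cover counting error alone. The fitted log2 fold changes, which for so few counts depend on the prior count of the fit, were -5.25 ± 0.56 (SE, adjusted p = 2.57e-08) in Fn14 KO and -1.45 ± 0.33 (SE, adjusted p = 0.000907) in Fn14alpha KO cells, and the TWEAK value did not pass (adjusted p = 0.0592, edgeR). Of the leukocyte and antigen-presenting cell markers 4 of 10 could be tested, and 3 of them, picked after their values were seen, were called in Fn14 KO cells: ITGAX lower, with -3.73 ± 0.28 (SE, adjusted p = 8.33e-11), and CSF1R and CD68 higher, with 1.76 ± 0.24 (SE, adjusted p = 1.03e-06) and 0.84 ± 0.31 (SE, adjusted p = 0.0252) (edgeR). In Fn14alpha KO cells ITGAX and CSF1R were called lower, with -0.83 ± 0.20 (SE, adjusted p = 0.00147) and -0.82 ± 0.31 (SE, adjusted p = 0.0354). The Fn14 KO call of CD68 was lost with the neighbours removed and when single libraries were left out (adjusted p = 0.0609 without Fn14 KO replicate 2, 0.055 without Fn14 KO replicate 4 and 0.0536 without WT replicate 4), and the Fn14alpha KO call of CSF1R when single libraries were left out (adjusted p = 0.145 without Fn14alpha KO replicate 1, 0.075 without Fn14alpha KO replicate 2, 0.0671 without Fn14alpha KO replicate 3, 0.0941 without WT replicate 1 and 0.0576 without WT replicate 2). The part of these markers' cells in the class II values was not tested.

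HLA-DRA, the alpha chain of the main class II molecule, had 0, 0, 0 and 0 counts in the Fn14 KO libraries and 0, 0, 3 and 7 counts in the Fn14alpha KO libraries. It had 6, 2, 5 and 4 counts in the TWEAK libraries and 9, 11, 18 and 13 counts in the WT libraries. It was too low for the test. Against a floor of 3 counts over the 4 Fn14 KO libraries, its level there was at least 16.6-fold lower than in WT cells. The Fn14alpha KO libraries held 10 counts in all, 7 of them in replicate 4. HLA-DRB1, a beta chain of the same molecule, went the other way, with 56, 51, 36 and 47 counts in the Fn14 KO libraries and 16, 28, 20 and 19 counts in the Fn14alpha KO libraries. It had 18, 14, 19 and 11 counts in the TWEAK libraries and 20, 18, 13 and 22 counts in the WT libraries. All Fn14 KO libraries lay above all others, and the log2 fold change was 1.52 ± 0.23 (SE, adjusted p = 5.37e-06) against WT (edgeR), although reads of the HLA-DRB copies may be placed on one another.

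HLA-DMA, a chain of the exchange factor that loads class II, had 16, 23, 19 and 16 counts in the Fn14 KO libraries and 53, 54, 53 and 39 counts in the Fn14alpha KO libraries. It had 35, 51, 20 and 36 counts in the TWEAK libraries and 49, 49, 64 and 46 counts in the WT libraries. It fell in Fn14 KO cells, with -1.33 ± 0.25 (SE, adjusted p = 8.13e-05), and was not called in Fn14alpha KO cells (adjusted p = 0.962, edgeR). It overlaps BRD2 on the opposite strand, which had 55762 counts against its 623, and BRD2 was called higher in Fn14 KO cells. HLA-DMB, the partner chain, had 60 counts in all 16 libraries together. HLA-DPA1, the alpha chain of HLA-DP, averaged 1.37 ± 0.132 FPKM in Fn14 KO cells, 1.93 ± 0.134 in Fn14alpha KO cells, 2.32 ± 0.198 in TWEAK-treated cells and 2.098 ± 0.0741 in WT cells (SD, n = 4 each) and fell in Fn14 KO cells, with -0.50 ± 0.10 (SE, adjusted p = 0.00017) in edgeR. HLA-DPB1, its beta chain, was the most abundant of the 8 class II genes, at 4.57 ± 0.847 FPKM in Fn14 KO cells, 4.51 ± 0.287 in Fn14alpha KO cells, 4.39 ± 0.272 in TWEAK-treated cells and 4.85 ± 0.316 in WT cells, and passed in none of the 4 comparisons (adjusted p from 0.165 to 0.823). CIITA, the master transactivator of class II, averaged 0.045 ± 0.00577 FPKM in Fn14 KO cells, 0.035 ± 0.00577 in Fn14alpha KO cells, 0.0675 ± 0.015 in TWEAK-treated cells and 0.0525 ± 0.015 in WT cells (SD, n = 4 each), and passed in none (adjusted p from 0.115 to 0.882, edgeR). It shares 11.6% of its exon bases with DEXI on the opposite strand, which had 1513 counts against its 273. DEXI was called higher in Fn14 KO cells than in WT (0.58, adjusted p = 0.00241) and Fn14alpha KO cells (0.80, adjusted p = 0.00011) in edgeR, so the CIITA levels are uncertain.

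**Figure D5:**
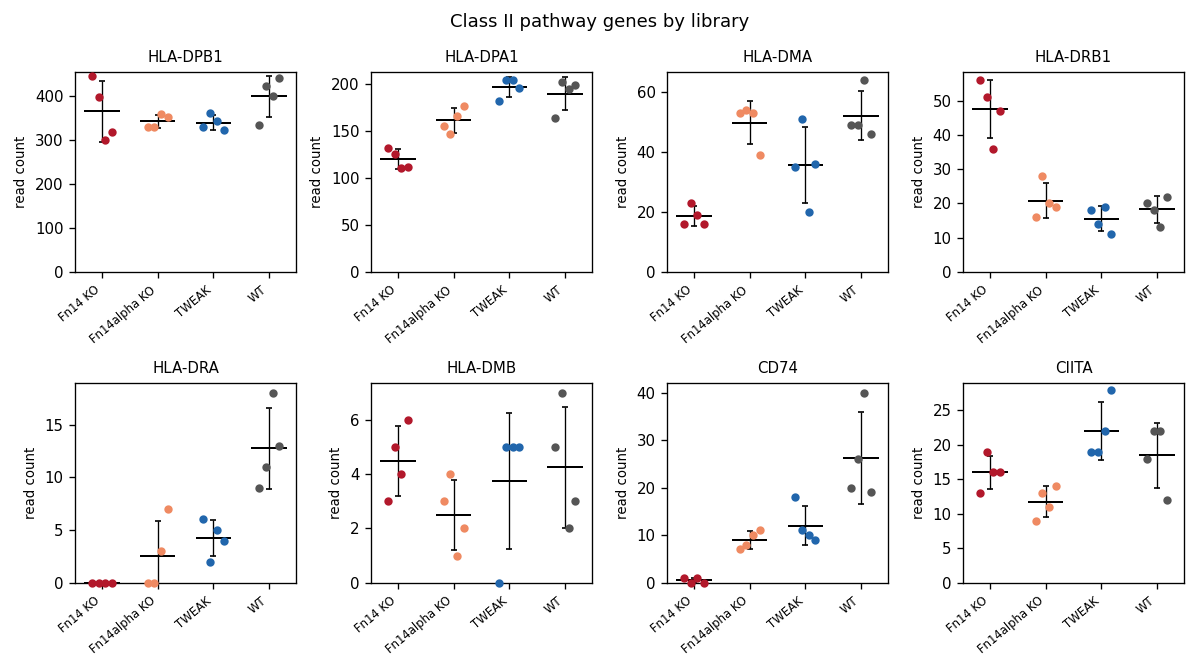
Read counts per library for the 8 class II pathway genes in Fn14 KO, Fn14alpha KO, TWEAK-treated and WT cells, with points for the 4 libraries of a group and bars for the mean ± SD. CD74 has at most 1 count and HLA-DRA 0 in the Fn14 KO libraries, while HLA-DRB1 is highest there.

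Of the 5 tested enzymes that prepare peptides for class II in lysosomes 4 fell in Fn14 KO cells and 5 in Fn14alpha KO cells, where 26.3% and 22.2% of all genes were called lower. CTSS, cathepsin S, which cuts the invariant chain, averaged 0.085 ± 0.0311 FPKM in Fn14 KO cells, 1.36 ± 0.198 in Fn14alpha KO cells, 8.31 ± 0.919 in TWEAK-treated cells and 6.58 ± 0.422 in WT cells (SD, n = 4 each). The log2 fold change was -6.10 ± 0.17 (SE, adjusted p = 3.62e-19) in Fn14 KO, -2.31 ± 0.11 (SE, adjusted p = 5.06e-14) in Fn14alpha KO and 0.39 ± 0.10 (SE, adjusted p = 0.0097) in TWEAK-treated cells (edgeR). The TWEAK call of CTSS was lost with limma on log2(FPKM + 0.1) (adjusted p = 0.142) and in edgeR without TWEAK replicate 2 (adjusted p = 0.0517). CTSL, cathepsin L, gave -0.52 ± 0.07 (SE, adjusted p = 2.02e-06) and -0.74 ± 0.07 (SE, adjusted p = 1.84e-08) in Fn14 KO and Fn14alpha KO cells. LGMN, an asparagine-specific protease of the same compartment, gave -0.67 ± 0.07 (SE, adjusted p = 7.1e-09) and -0.35 ± 0.07 (SE, adjusted p = 0.000106) in edgeR. The list held 6 genes, and 0 of the 5 tested rose in either knockout by edgeR, also at an unadjusted p under 0.05 and by DESeq2 and limma. In TWEAK-treated cells 1 rose and 1 fell, where 4.82% of all genes were called higher and 2.05% lower.

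Factors known to act on these promoters were called in both directions in the knockouts. IRF1, which binds the ISRE and raises class I genes, averaged 1.76 ± 0.217 FPKM in Fn14 KO cells, 2.17 ± 0.0794 in Fn14alpha KO cells, 3.42 ± 0.298 in TWEAK-treated cells and 2.75 ± 0.0436 in WT cells (SD, n = 4 each). It was called in all 3 comparisons with WT, with -0.53 ± 0.09 (SE, adjusted p = 1.3e-05) in Fn14 KO, -0.37 ± 0.08 (SE, adjusted p = 0.000938) in Fn14alpha KO and 0.37 ± 0.08 (SE, adjusted p = 0.00429) in TWEAK-treated cells (edgeR). IRF2, a relative that competes for the same element, gave -0.48 ± 0.10 (SE, adjusted p = 0.000299) in Fn14 KO cells and 0.57 ± 0.09 (SE, adjusted p = 0.000172) after TWEAK, and its Fn14 KO value turned to 0.04 with the neighbours removed. IFNGR2, a chain of the interferon gamma receptor, rose after TWEAK by 0.70 ± 0.07 (SE, adjusted p = 5.56e-08). RFX5, which binds the X box of class I and class II promoters, rose by 0.43 ± 0.07 (SE, adjusted p = 2.3e-05) in Fn14 KO cells and by 0.42 ± 0.07 (SE, adjusted p = 0.000373) after TWEAK (edgeR). Its Fn14 KO value became 0.01 with the neighbours removed. Of 15 interferon signalling genes 3 rose and 7 fell in Fn14 KO, 4 rose and 4 fell in Fn14alpha KO, and 6 rose and 0 fell in TWEAK-treated cells. Of 8 factors of the complex that holds RFX, NF-Y and CREB, 3 rose and 1 fell in Fn14 KO, 2 rose and 2 fell in Fn14alpha KO, and 1 rose and 1 fell in TWEAK-treated cells. Over all genes, 26.6% were called higher and 26.3% lower in Fn14 KO cells, 20% and 22.2% in Fn14alpha KO cells, and 4.82% and 2.05% after TWEAK. In Fn14alpha KO cells both lists stood near these shares.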

How the data were processed

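Poly(A) RNA-seq of 16 LX-2 libraries, 4 per group, was analysed from the authors' deposited table. It holds whole-number read counts per gene and FPKM values for 61806 genes, with each gene's exonic size in bases as a further deposited value used to check the FPKM. Deposited FPKM lay between 0.9832 and 1.0133 times the value computed from counts and exonic size. Per the submitters' processing notes, which give no roles, the tools were HISAT2 2.0.1, HTSeq 0.6.1, DESeq2, FastQC 0.10.1 and cutadapt 1.9.1 and the builds GRCh38.p13 and hg38. Neither the labels nor the table state the strand setting or the handling of reads with several matches.

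The deposited counts were tested with edgeR 4.0.16 (R 4.3.3): TMM scaling, filterByExpr by group, 1 quasi-likelihood fit of all 16 libraries (common dispersion 0.007497), 4 contrasts and Benjamini-Hochberg adjustment over 16029 genes. The SE is the absolute log2 fold change divided by the square root of F. Shares of all genes called are those of this fit. The 31 members and all gene lists were chosen with earlier results of these data known. Genes outside the 31 are named as the first of their list by p in a comparison, or as known regulators or constitutive counterparts. Of 14 constitutive 20S genes, 15 interferon genes, 8 enhanceosome factors, 6 lysosomal genes, 10 class I-like chains, 5 other class II genes and 10 genes of the endoplasmic reticulum, counts called are given; the results of some listed genes are not reported here. Alternatives were DESeq2 1.42.0 (size factors and Wald test), limma 3.58.1 on log2(FPKM + 1) and log2(FPKM + 0.1), total counts, no filter (37059 genes), only the groups compared, a replicate block, leaving out each library, and subtracting the median of the 100 nearest tested genes. The fit was tested on simulated data. Library totals were 13335919 to 16888606 counts, and replicates differed beyond sampling noise (chi-square per degree of freedom 2.40 to 43.6), so none was merged. No pairing of the groups by replicate number was evident. Counting intervals are exact at 95% and cover counting error alone. Promoter windows and letters came from RefSeq tables with Python 3.11.15, numpy 2.4.6, pandas 2.3.3 and matplotlib 3.10.9.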

Additional observations from a re-analysis of the deposited data

Results flagged for a closer look

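Each of the following libraries lay farther from the rest of its own group of 4 than Dixon's 95% critical value allows. This held in 10 of 112 groups of libraries, where chance gives about 1 in 20 groups, and 5 of the 10 were WT replicate 4 and 3 were Fn14 KO replicate 1, the 2 libraries that lay apart as a whole. In Fn14 KO replicate 1, HLA-B stood at 32.95 FPKM where the other 3 had 21.59 to 22.18, PSMB9 at 3.71 where they had 2.23 to 2.41, and PSME1 at 36.48 where they had 22.50 to 24.33. In WT replicate 4, HLA-B stood at 52.64 FPKM where the other 3 had 42.78 to 43.05, B2M at 536.95 where they had 432.6 to 442.62, and PSME2 at 50.33 where they had 39.58 to 40.53. The same WT library was low for TAPBP, at 12.09 FPKM where the other 3 had 18.97 to 19.54, and for CIITA, at 0.03 where they had 0.06. TWEAK replicate 1 had 0.26 FPKM of CD74 where the others had 0.14 to 0.16, and TWEAK replicate 4 had 0.09 FPKM of CIITA where the others had 0.06, both genes with at most 28 counts a TWEAK library. The deviations of Fn14 KO replicate 1 and WT replicate 4 from their group means, over genes, correlated at 0.55, a description across genes that are not independent.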

How the results depend on the processing

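Of 61 called pairs of a gene and a comparison, 43 kept their direction and their call under all 26 alternatives, and of 51 uncalled pairs 17 passed under at least 1. With the median of the neighbouring genes removed, 3 of the 61 reversed, and none was called then: TAP1 at -0.0304 and TAP2 at -0.19 in Fn14alpha KO against WT, and CALR at 0.0268 in Fn14 KO against Fn14alpha KO. For 35 genes outside the 31, checked in the same way after the data had been seen, 48 of 90 called pairs kept theirs, and 5 reversed with the neighbours removed: IRF2 at 0.0380 in Fn14 KO against WT, NFYA at -0.0195 and MICA at -0.0304 in Fn14alpha KO against WT, and PSMB4 at -0.0525 and CTSL at -0.16 in Fn14 KO against Fn14alpha KO. The class I count after TWEAK was 5 with DESeq2's Wald test and with the neighbours removed, and 2 to 5 with 1 library left out (5 without Fn14 KO replicate 1 or 4). The class II count after TWEAK was 1, CD74, with total counts, with both limma settings and without WT replicate 4 and Fn14 KO replicate 1 together, and 0 to 1 with 1 library left out (1 without Fn14 KO replicate 1, TWEAK replicate 1 or WT replicate 4). In Fn14alpha KO cells the class II count was 2 with no filter, 3 with the neighbours removed and 1 to 2 with 1 library left out (2 without WT replicate 4). The causes were not tested. In Fn14alpha KO cells the calls of HLA-E, TAP2, CALR, PSMB10 and PSME2 were each lost on leaving out 1 of several libraries. Same-numbered libraries gave 24 pairs of groups' deviations with correlations of -0.44 to 0.22, 4 of them over 0.1, so no pairing by number was evident. These correlations cannot exclude a shared preparation of same-numbered libraries. With the replicate block 58 of the 61 calls held, and TAP2 (0.0671), CALR (0.0542) and PSME2 (0.0599, adjusted p), all in Fn14alpha KO cells, did not. The fit to only the groups compared gave no CD74 value for Fn14 KO against Fn14alpha KO. Depth limits HLA-DRA, HLA-DMB, CD74 and CIITA.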

Other observations

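Chains that resemble class I but serve other ligands or receptors were called in both directions in the knockouts. Of 10 such genes 9 were tested: 2 rose and 5 fell in Fn14 KO cells, 3 rose and 5 fell in Fn14alpha KO cells, and 0 rose and 1 fell after TWEAK (edgeR). Of all genes 26.6% were called higher and 26.3% lower in Fn14 KO cells, and 20% and 22.2% in Fn14alpha KO cells. After TWEAK 4.82% of all genes were called higher and 2.05% lower. An unadjusted p under 0.05 gave 0 higher and 3 lower after TWEAK, and DESeq2 and limma each called 0 higher and 1 lower. The shares of all genes under these other settings are not reported here. MR1, which shows microbial metabolites to MAIT cells, averaged 0.575 ± 0.0451 FPKM in Fn14 KO cells, 0.605 ± 0.0858 in Fn14alpha KO cells, 1.38 ± 0.0993 in TWEAK-treated cells and 1.72 ± 0.278 in WT cells (SD, n = 4 each), with log2 fold changes of -1.46 ± 0.13 (SE, adjusted p = 7.4e-10) and -1.53 ± 0.13 (SE, adjusted p = 7.06e-10) in Fn14 KO and Fn14alpha KO cells. MICA, a stress ligand of the NK receptor NKG2D, rose in both, with 0.81 ± 0.08 (SE, adjusted p = 4.26e-09) and 0.37 ± 0.08 (SE, adjusted p = 0.000531), although its Fn14alpha KO value turned to -0.03 with the neighbours removed. ULBP1, another NKG2D ligand, was the gene lower after TWEAK, with -0.75 ± 0.19 (SE, adjusted p = 0.0136) in edgeR, a call lost without TWEAK replicate 1 (0.0638), WT replicate 1 (0.0535) or WT replicate 2 (0.0546, adjusted p).

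Of 10 other genes of folding and peptide handling in the endoplasmic reticulum, 1 rose and 5 fell in Fn14 KO, 3 rose and 3 fell in Fn14alpha KO, and 0 were called in TWEAK-treated cells by edgeR, also at an unadjusted p under 0.05, and 0 by DESeq2 and limma. In Fn14 KO cells 26.6% of all genes were called higher and 26.3% lower. The 3 each way in Fn14alpha KO cells stand near the 20% and 22.2% of all genes. The 0 of 10 after TWEAK stands near the 6.88% of all genes called there by edgeR. UGGT1, which checks the folding of glycoproteins, averaged 14.0 ± 1.88 FPKM in Fn14 KO cells, 22.6 ± 2.28 in Fn14alpha KO cells, 27.4 ± 0.869 in TWEAK-treated cells and 26.3 ± 2.68 in WT cells (SD, n = 4 each), and gave -0.80 ± 0.09 (SE, adjusted p = 3.7e-08) in Fn14 KO cells. PDIA6, a disulfide isomerase, gave -0.51 ± 0.06 (SE, adjusted p = 2.41e-07) in Fn14 KO and 0.32 ± 0.06 (SE, adjusted p = 0.000185) in Fn14alpha KO cells. The Fn14 KO value of PDIA6 became -0.15 (adjusted p = 0.0562) with the neighbours removed. Of 5 other class II genes 2 were tested, and 0 rose and 1, HLA-DOB, fell in Fn14 KO cells with -1.40 ± 0.58 (SE, adjusted p = 0.0452), a call lost with the replicate block (0.0537) and without Fn14 KO replicate 1, 2 or 4, Fn14alpha KO replicate 2, TWEAK replicate 2 or WT replicate 1, 2 or 3 (0.0506 to 0.118, adjusted p), with 0 called in Fn14alpha KO or TWEAK-treated cells by edgeR and DESeq2, and 1 higher in Fn14alpha KO cells by limma.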
